A study of Mus musculus with 4 samples.

Results

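The comparison described here set 1 array, labelled as cells sorted for an HB9-GFP reporter, against 1 array of undifferentiated mouse embryonic stem (ES) cells. These are 2 of the series' 4 Affymetrix arrays, and the others hold sorted Sox1 neural stem cells and cerebellar granule cells of postnatal day 6. HB9 is the product of Mnx1, a homeodomain factor of postmitotic motoneurons, and the reporter joins green fluorescent protein (GFP) to its transcription. Per the labels, the HB9 reporter ES cells were grown on mitomycin-treated embryonic fibroblasts in serum with leukemia inhibitory factor (LIF), then differentiated with retinoic acid at 0.1 uM, Sonic hedgehog and its agonist purmorphamine at 0.2 uM. The labels place these factors on days 5 to 9 and the sort on day 8, so the stated exposure ends after the stated sort. They carry the same culture text on every sample, and do not say whether the undifferentiated ES cells were freed of the feeder fibroblasts before their RNA was taken, or whether they were the reporter line. The difference was the log2 signal of the array labelled HB9-GFP+ minus that of the ES array, for 18193 genes. Where a gene had several probe sets that carry 1 symbol, the brightest by mean log2 signal across all 4 arrays stood for it. With 1 array a side there is no replicate error, so no test was possible, and every value is a difference between these arrays.

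ES cells stay pluripotent through a network of transcription factors around Pou5f1, Sox2 and Nanog, supported in culture by LIF and serum. Fibroblasts, such as those of a feeder layer, secrete the fibrillar collagens and small proteoglycans of connective tissue, and also answer inflammatory signals with chemokines and acute-phase proteins. Motoneurons arise from ventral progenitors that pass through expression of Olig2, and then turn on Mnx1, Isl1, Lhx3 and the genes of acetylcholine synthesis.

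In every pair of signals below, the array labelled HB9-GFP+ comes first and the ES array follows it. A gene counted as detected at a signal of 157.5, which is 1 log2 unit above the low level of 78.8. It was called higher or lower when detected on the brighter array and at least 4-fold different, with values under the low level set to it. A fold whose lower signal was under 78.8 is a minimum, written as "at least". Many such genes are shown by their signals alone, and the ratio of those signals overstates the fold used for the call. For Olig2, Ccl11 and Usp18, for example, that fold was at least 4.07, 4.05 and 4.05. No fold is printed for genes whose lower signal was above 78.8 but undetected. Each call rests on the brightest probe set of a gene. The called genes on a list or among the 20 largest differences in each direction number 109. Of these, 61 had several probe sets, in 26 of them no other probe set was detected, and 40 fell short of 4-fold with both the mean and the median over probe sets. Other called genes named below, such as Ndufb7 and those of families chosen by symbol, are outside these counts. Of 10117 genes detected on either array, 202 were higher (2.00%) and 148 lower (1.46%) on the array labelled HB9-GFP+, and 7628 (75.4%) differed by less than 2-fold. Calls in either direction made up 3.46%. The split depended on the scaling, with 231 higher and 109 lower after quantile normalization. It was 78 higher and 632 lower after centring on reference genes that include Hprt. Hprt itself had the largest difference of all genes, at 6.56. Centring moved the median of detected genes to -0.70 with Hprt among the reference genes, and to -0.06 without it. Among the higher genes 126 were undetected on the ES array, while among the lower genes 81 were undetected on the array labelled HB9-GFP+. The median signal over all probe sets was 61.9 against 86.2, and its part in these counts was not tested. The largest differences were on the higher side, where 51 genes passed 8-fold (3 log2 units), against 11 on the lower side. Between these 2 arrays, 18 hybridisation control probe sets differed with a standard deviation (SD) of 0.11 on the log2 scale. Probe sets for the same gene differed with a pooled SD of 0.60. Neither value measures the spread between replicate samples. The ratio of 3' to 5' control probe sets was 2.77 against 4.55 for actin and 1.37 against 1.99 for Gapdh, so the signs of RNA quality moved with the comparison. Their part in it was not tested.

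**Figure D1:**
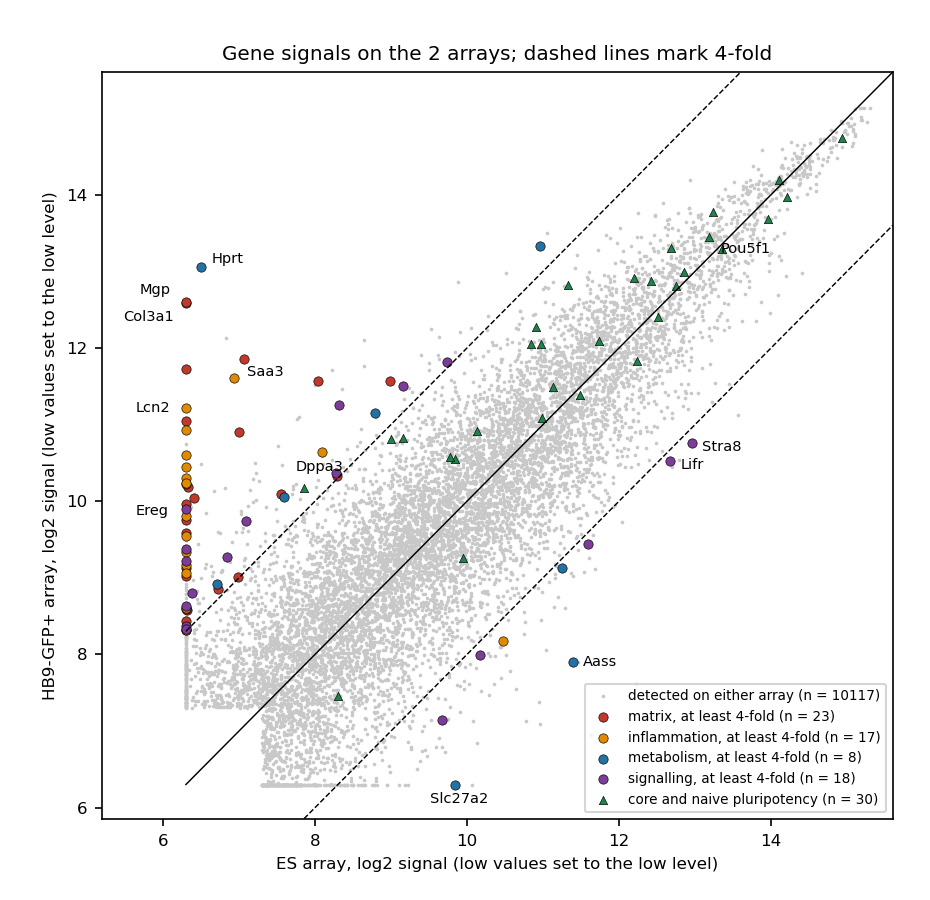
Log2 signal of each gene detected on either array (10117 genes), with the ES array on the x axis and the array labelled HB9-GFP+ on the y axis and values under the low level set to it. Of the called genes, 12 of 23 matrix and 14 of 17 inflammation genes lie on the left edge, where the ES value is at the low level, and the rest lie above the upper 4-fold line away from it, except Irak3 below the lower line, while the 30 pluripotency genes (triangles) lie around the diagonal, with Dppa3 past the upper line.

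The label was checked against the genes that define motoneurons. Mnx1 itself lay at 15.9 against 5.8, Lhx3 at 7.5 against 77.8, Chat at 17.6 against 64.9 and Slc18a3, the vesicular acetylcholine transporter, at 10.5 against 5.4. None of these 4 was detected on either array. Isl1 lay at 85.2 against 189.1, detected on the ES array and not on the array labelled HB9-GFP+. Of 25 measured genes of motoneurons and their ventral progenitors, 8 were detected on either array. The 3 called higher were the progenitor factors Olig1 (619.7 against 61.9) and Olig2 (320.6 against 0.9) and the guidance ligand Slit2 (858.1 against 136.7). For Slit2 the other probe sets were undetected, and 1 of them differed by -0.19. Olig2, at least 4.07-fold higher, lost its call in 3 of the alternatives run. Olig1 lost its call with the low level 1 log2 unit higher. On the granule array Olig1 and Olig2 lay at 3541.0 and 896.0. Of the 8 detected genes, 3 were at least 2-fold lower, among them Isl1 and Pax6 (36.8 against 217.8), and 0 were called lower. The 30 core and naive pluripotency genes were detected on both arrays, so the array labelled HB9-GFP+ carries a pluripotency profile and the postmitotic motoneuron genes are missing from it. It is called by its label throughout.

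Functions differed in how many of their genes were called. Of 79 detected genes of the extracellular matrix, 23 were higher (29.1%) and 0 lower, and of 54 detected inflammation genes 16 were higher (29.6%) and 1 lower. Those shares stand beside 2.00% higher and 1.46% lower over all detected genes. So do the counts of single lists below, many of which have few detected members. Among 180 detected signalling genes 13 were higher (7.22%) and 5 lower (2.78%). Metabolism lay near the background, with 5 of 183 detected genes higher (2.73%) and 3 lower (1.64%). The median log2 difference was 0.84 for matrix, 1.29 for inflammation, 0.24 for metabolism and 0.15 for signalling genes, beside 0.04 over all detected genes. These lists were drawn up with earlier results of these arrays known, so the counts describe the lists and are not independent evidence.

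**Figure D2:**
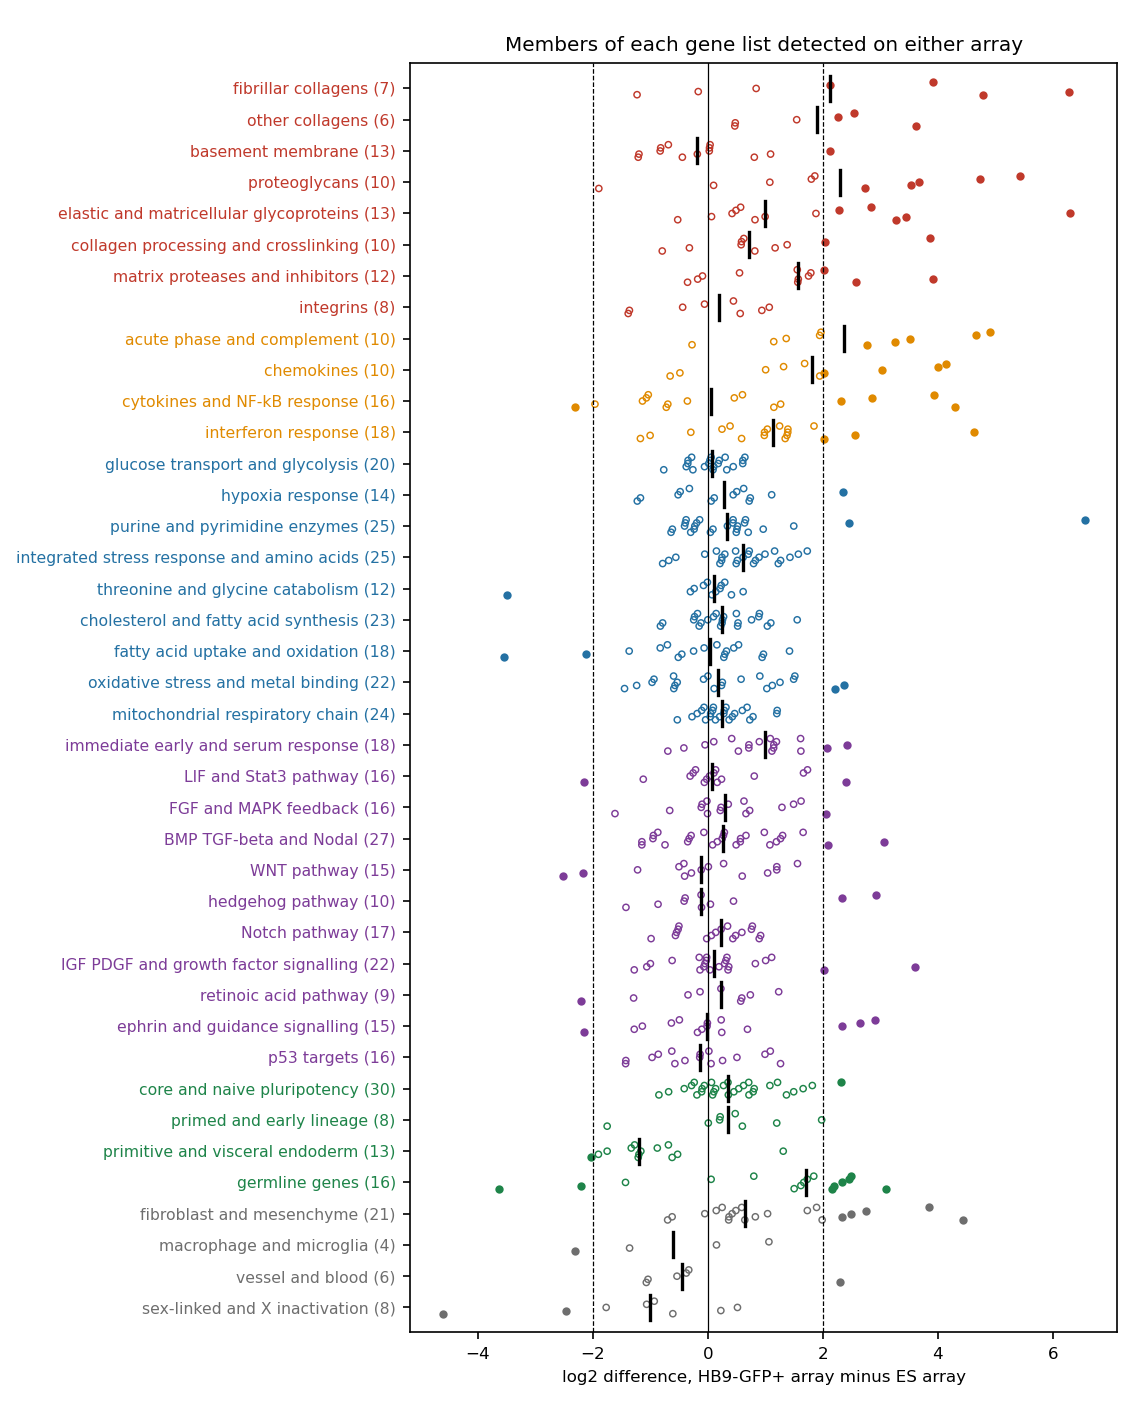
Log2 difference (array labelled HB9-GFP+ minus ES array, x axis) of every detected member of each gene list (y axis, number of members in parentheses). Filled points are called members, open points are not called, black bars are list medians and dashed lines mark 4-fold. Acute-phase genes, proteoglycans, the 2 collagen lists and chemokines have the highest list medians, from 2.37 down to 1.82. The single genes furthest to the right are the metabolic gene Hprt at 6.56 and Mgp, of the matrix glycoprotein list, at 6.30. The endoderm list has its median at -1.20.

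The sequences just upstream of 4 of the called genes with the largest differences are shown because the base composition of promoters was not used by the calls. They are the 250 bases before the start site in the RefSeq promoter table of GRCm38.p6, 5′ to 3′ on the gene's strand, with CG dinucleotides in capitals.
Col3a1, chr1:45311288-45311537, plus strand: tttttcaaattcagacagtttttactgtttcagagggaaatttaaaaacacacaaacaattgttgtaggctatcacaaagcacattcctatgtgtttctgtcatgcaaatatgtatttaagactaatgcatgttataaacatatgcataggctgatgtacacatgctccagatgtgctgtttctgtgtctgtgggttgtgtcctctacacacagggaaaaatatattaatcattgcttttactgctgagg
Lcn2, chr2:32387740-32387989, minus strand: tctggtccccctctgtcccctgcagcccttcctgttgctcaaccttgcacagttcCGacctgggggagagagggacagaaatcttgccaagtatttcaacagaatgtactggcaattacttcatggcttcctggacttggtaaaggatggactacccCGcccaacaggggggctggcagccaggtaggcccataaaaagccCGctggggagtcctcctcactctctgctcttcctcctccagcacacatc
Col1a2, chr6:4505368-4505617, plus strand: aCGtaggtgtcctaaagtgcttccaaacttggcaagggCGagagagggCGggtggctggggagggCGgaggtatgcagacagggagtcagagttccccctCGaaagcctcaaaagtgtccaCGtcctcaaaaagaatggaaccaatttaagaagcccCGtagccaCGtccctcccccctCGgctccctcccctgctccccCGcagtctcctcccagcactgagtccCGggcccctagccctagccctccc
Bgn, chrX:73483351-73483600, plus strand: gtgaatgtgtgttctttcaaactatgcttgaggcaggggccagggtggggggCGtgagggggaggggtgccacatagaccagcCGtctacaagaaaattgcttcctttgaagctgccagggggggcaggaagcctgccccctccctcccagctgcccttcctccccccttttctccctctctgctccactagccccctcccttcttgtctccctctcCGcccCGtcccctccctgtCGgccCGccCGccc

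These 250 bases hold 0 CG dinucleotides in Col3a1, 3 in Lcn2, 7 in Bgn and 11 in Col1a2. Over the whole 300-base window of the table, which adds 50 bases after the start, the ratio of observed to expected CG was 0.00, 0.13, 0.32 and 0.47 in the same order. The median ratio was 0.45 over the 16 higher matrix genes with an entry and 0.35 over the 8 higher inflammation genes with an entry. Over the 8273 detected genes with an entry it was 0.79, over the 159 higher genes 0.62 and over the 111 lower genes 0.68. The C/EBP consensus TTNNGNAA, searched on both strands with overlapping matches allowed, occurred in 7 of the 8 inflammation windows (87.5%), in 6 of the 16 matrix windows (37.5%), in 29.7% of the windows of detected genes and in 40.7% of all 27025 windows. In Lcn2 the match was TTGCTCAA at -216 to -209, counting the start site as 0. Col3a1 had an overlapping pair of matches at 20 to 28, while Col1a2 and Bgn had none. The AP-1 motif TGANTCA, the NF-kB and CArG consensus motifs, the E-box CACGTG and the amino acid response element TGATGNAA had no match in these 4 windows. Shares for the NF-kB motif were 12.5% of the inflammation windows and 10.2% of those of detected genes. The median GC content was 50.7% in the inflammation windows, 56.8% in the matrix windows, 61.7% in those of detected genes and 52.7% in all windows. The part of base composition in the motif shares was not tested, and uncalled members of these lists were not counted separately. A match is a string of letters and not a shown binding site.

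Matrix genes were called higher among collagens, proteoglycans, glycoproteins and modifying enzymes alike. Of the 23 called, 19 were undetected on the ES array, and 19 had their highest signal of the 4 arrays on the array labelled HB9-GFP+. Fibrillar collagens, the structural fibres of connective tissue, had 4 of 7 detected members higher (57.1%), beside 2.00% over all detected genes. Col3a1 stood at 6165.2 against 20.6, at least 78.3-fold, but its other probe set differed by 2.78. Col1a2 stood at 3696.3 against 134.4. Col5a2, which helps start fibres, stood at 1915 against 127.3. Col1a1 stood at 461.4 against 105.9, and its other detected probe set at 1202.4 against 20.7. The fibrillar collagens that were not called were Col5a1 (586.7 against 327.3), Col5a3 (224.5 against 251.7) and the cartilage collagen gene Col11a1, at 9 against 184.6. Collagen VI, a microfibril of 3 chains, was higher in its measured chains, with Col6a1 at 1049.2 against 84.9, Col6a2 at 1090.9 against 187.7, a 5.81-fold difference, and Col6a3 at 383.6 against 79.8. The other probe set of Col6a2 differed by 1.39, short of 4-fold.

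Of the small leucine-rich proteoglycans, which bind collagen fibres, 3 were called, all higher. Dcn (decorin) stood at 3375.9 against 24, at least 42.9-fold, but its other probe set was undetected and the mean over both gave a log2 difference of 0.58. Bgn (biglycan) stood at 2105.6 against 32, at least 26.7-fold, and its other 2 detected probe sets differed by 4.49 and 4.44. Lum (lumican) stood at 1000 against 61.5. The cell-surface heparan sulfate proteoglycans were uneven. Gpc4 was 11.6-fold higher at 3038.2 against 262.9, Sdc2 was higher at 522.1 against 77.9, and Sdc1, at 3072 against 880.8, fell short of the rule. Sdc4 lay on the other side, at 939.8 against 3492.5, but its other probe set differed by 0.55 in the opposite direction.

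Further matrix glycoproteins and modifying enzymes were called in the same direction. Mgp, a matrix protein that restrains calcification, stood at 6205.5 against 70.7, at least 78.8-fold, and was undetected on the Sox1 and granule arrays at 16.1 and 13.7. Thbs2 (864.5 against 46.6), Igfbp7 (763.6 against 72), Postn (560.4 against 9.5) and Tnc (384.2 against 45.2) were higher as well. Lox, which crosslinks collagen and elastin, stood at 1162.9 against 80.1, and Serpinh1, the collagen chaperone, at 1282.6 against 312 (4.11-fold). Among proteases and their inhibitors Timp2 (1191.9 against 69.9), Timp1 (3037.9 against 505.8, 6.01-fold) and the membrane protease Mmp14 (514.6 against 126.8) were higher, and Mmp2, the gelatinase that Mmp14 activates, lay at 2026.5 against 584.8 and was not called. Fn1, the fibronectin gene, lay at 10804.8 against 8058.9, and its other probe set differed by -1.10.

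Basement membrane genes did not share this pattern. Of 13 detected members 1 was higher, Col4a5, at 344.8 against 49.9, and the list's median was -0.18. Laminin alpha 1 (Lama1) lay at 378.9 against 868.2 and Col4a1 at 1570.5 against 3631.8, although the other probe set of Col4a1 differed by 0.80. Laminin beta 1 (Lamb1) lay at 2084.5 against 2363.8, and laminin gamma 1 (Lamc1) at 1565.5 against 2124.6. The 8 detected integrins, the receptors for matrix, had 0 calls, from Itga5 at 490.3 against 233.6 to Itga9 at 69.1 against 205.4. Calls among the collagens and proteoglycans were thus not matched by calls among these receptors.

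The number of matrix calls depended on how probe sets were combined, with 13 called from the mean and 14 from the median over a gene's probe sets, in place of 23, and 0 of these lower. The 10 calls lost under both were Col4a5, Col6a2, Dcn, Igfbp7, Lox, Mmp14, Sdc2, Serpinh1, Timp2 and Tnc. The 17 inflammation calls described next became 11 under either, without Cebpd, Cp, Cxcl12, Irak3, Ptx3 and Vcam1.

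**Figure D3:**
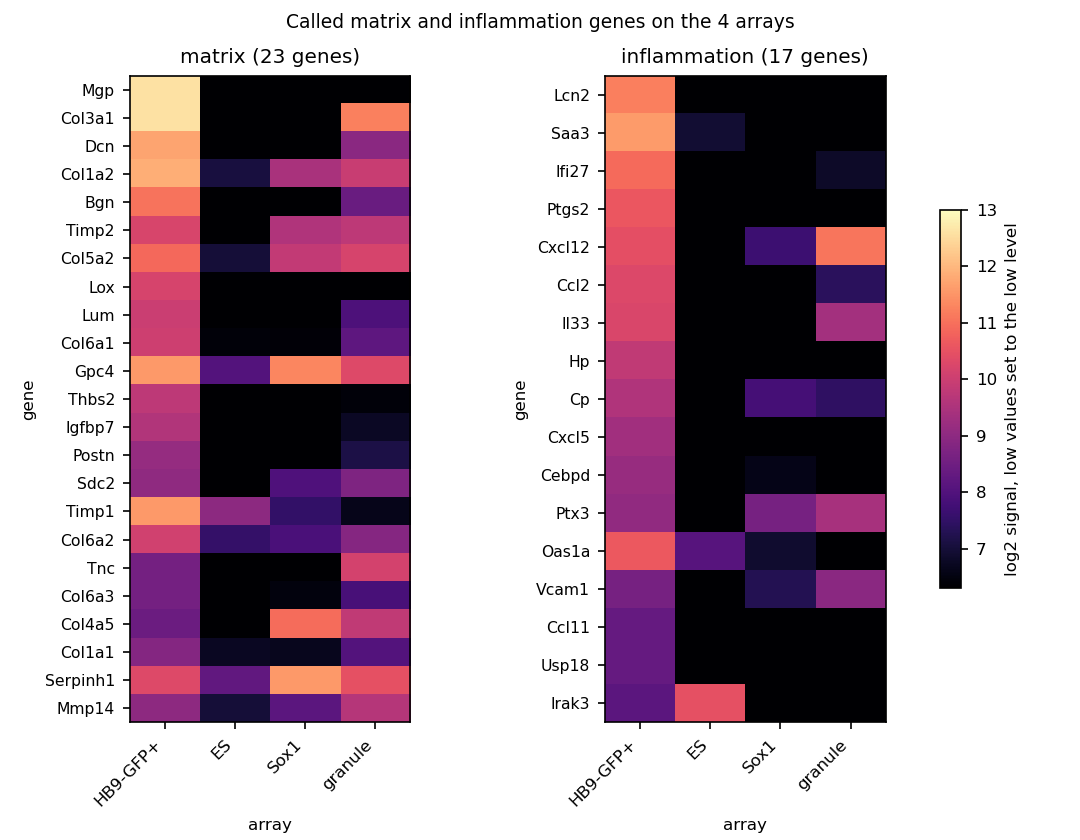
Log2 signal (colour, with values under the low level set to it) of the 23 called matrix genes and the 17 called inflammation genes (rows) on the 4 arrays (columns), ordered by their difference. The ES column is dark for nearly every gene, and 10 of the 16 higher inflammation genes are undetected on both the Sox1 and the granule array.

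Inflammation genes were called higher in 16 cases, 15 of them undetected on the ES array. Acute-phase and complement genes led this group, with 5 of 10 detected members higher (50.0%, beside 2.00% over all detected genes). Their median was 2.37. Lcn2, which encodes the iron-siderophore binding protein lipocalin 2, stood at 2374.2 against 2.1, at least 30.1-fold. Saa3, a serum amyloid A gene induced outside the liver, stood at 3104.9 against 122.6. Haptoglobin (Hp) stood at 897.1 against 4.3, ceruloplasmin (Cp) at 748.1 against 2.6 and the pentraxin gene Ptx3 at 536.1 against 18.3. Cp had 3 other detected probe sets, which differed by 2.71 to 2.90, and 4 undetected ones, and fell short of 4-fold with the mean (0.62) and median (1.68) over probe sets. The complement proteases C1ra (308.4 against 48.4) and C1s1 (368.5 against 143.1) and the metalloreductase gene Steap4 (303.4 against 12.2) were not called.

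Chemokines had 4 of 10 detected members higher (40.0%), beside 2.00% over all detected genes. Cxcl12, which guides cells bearing Cxcr4, stood at 1389.8 against 58.2, at least 17.6-fold, with 1.39 on its other detected probe set. The monocyte attractant Ccl2 stood at 1261.9 against 14.7. The neutrophil attractant Cxcl5 stood at 643.8 against 18.1 and the eosinophil attractant Ccl11 at 319.3 against 6.3. Cxcl1, another neutrophil attractant, lay at 186.9 against 261.4, so the neutrophil chemokines did not share a direction.

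The cytokine and NF-kB list was split, with 4 of 16 detected members higher, 1 lower and a median of 0.05. Higher were the prostaglandin synthase gene Ptgs2 (1555.8 against 16.8), the alarmin Il33 (1204.4 against 24.2), the transcription factor Cebpd (572.5 against 36.4) and the adhesion molecule Vcam1 (390.3 against 4). The other probe set of Ptgs2 differed by 1.16, short of 4-fold. The call on Vcam1 rests on 1 of 3 probe sets, since the others were undetected. Irak3, an inhibitor of Toll-like receptor signalling, was 4.94-fold lower at 288.8 against 1426.3. Several other NF-kB targets had negative differences and were not called. The inhibitor gene Nfkbia lay at 6915 against 11188 with -0.69, and its 4 other probe sets differed by -0.66 to -0.36. Icam1 lay at 3128 against 3999.1, Birc3 at 228.9 against 502.7 and the receptor Tlr2 at 141.2 against 549.8. Cebpb, the partner of Cebpd, lay at 1101.5 against 457.3.

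Interferon-response genes had 3 of 18 detected members higher (16.7%, beside 2.00% over all detected genes), 0 lower and a median of 1.14. Ifi27 stood at 1949.9 against 34.7, at least 24.8-fold, with 3.84 on its other probe set. Oas1a, an antiviral sensor, was 5.88-fold higher at 1599.8 against 272.2, and Usp18, which dampens the interferon receptor, stood at 318.8 against 55.5. A further 12 members had positive differences below the rule, such as Ifitm3 at 13513.3 against 5683 and Irf9 at 502.9 against 191.3. The antigen-presentation gene H2-K1 lay at 1306.2 against 2941.8, so this group was not uniform either.

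Markers of other cell types were read beside these results. Of 32 measured fibroblast and mesenchyme genes outside the matrix lists, 21 were detected against 15, and the summed signal of the list was 44314.5 against 24050.1. The Sox1 sum was 36007.9 and the granule sum 21468.2. Its called members were S100a4 (1710.3 against 25.2, at least 21.7-fold), Cav1 (1134.1 against 62.2), Cd44 (529.8 against 58), Anxa1 (1534.9 against 272.7) and S100a6 (1966.2 against 390.7), of which Cd44 and Anxa1 fell short of 4-fold with both the mean and the median over probe sets. Of the defining fibroblast genes, Col1a1 (461.4 against 105.9) and Dcn (3375.9 against 24) were called higher, as given above with the limit on Dcn. Thy1 lay at 498.6 against 387.4 and Pdgfrb at 785.7 against 442.5, and Twist2 was undetected on both arrays. Prrx1, detected only on the array labelled HB9-GFP+, lay at 312.9 against 11.4, at least 3.97-fold and so just short of the rule. Macrophage genes gave 2 detected of 19 measured, against 4, with a summed signal of 4396.2 against 3068, and the defining genes Ptprc, Csf1r, Adgre1 and C1qa were undetected on both arrays. The macrophage list held 1 lower call, H2-Aa, at 60.4 against 387.8, at least 4.92-fold, on 1 detected probe set of 4. On the granule array Csf1r lay at 4072.5. Vessel and blood genes summed to 1638.1 against 1783.6, with 1 of 6 detected members higher, Cd34 (389.6 against 33). The part of fibroblast RNA in the matrix and inflammation results was not tested. In bulk RNA of this kind, fewer cells of a type and less RNA per cell cannot be told apart.

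Metabolic genes as a whole differed little, and the exceptions were individual genes. The largest was Hprt, the salvage enzyme that returns hypoxanthine and guanine to the nucleotide pool, at 8529.3 against 90.3. Its signal was 93 in the Sox1 array and 3348.8 in the granule array, so the gene was undetected on the ES and Sox1 arrays and bright on the others. The adenine salvage enzyme Aprt lay at 4540.2 against 3344.6, and the enzymes that make purines anew, Ppat (3891.5 against 4449.3), Gart (5373.7 against 4239.7) and Paics (18070.4 against 16966.8), differed by less than 2-fold. Thymidine kinase (Tk1), which salvages thymidine, was 5.49-fold higher at 1059.2 against 192.9. Adenylosuccinate lyase (Adsl) lay at 2654.9 against 941.2 and was not called.

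Lipid and amino acid breakdown contributed the lower genes. Slc27a2, a very-long-chain fatty acid transporter and ligase, stood at 46.4 against 919.6, at least 11.7-fold lower. Lipoprotein lipase (Lpl) was 4.35-fold lower at 558 against 2428.8, with -1.61 as the mean over its probe sets, and Acsl4, which activates arachidonic acid, lay at 980.1 against 2526 with -1.57 and -0.85 on its other probe sets. The lysine-degrading enzyme Aass was 11.2-fold lower at 239.4 against 2678.1, while the glycine cleavage gene Gldc lay at 3836.4 against 3481.7 and Gcsh at 15162.7 against 14395.5.

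Genes of metal binding and redox defence divided within the list. Metallothionein 2 (Mt2) was 5.18-fold higher at 10331.4 against 1994.7, and the glutathione peroxidase Gpx2 was higher at 484.4 against 104.7. Mt1 (6189.9 against 3035.6), Gpx1 (13850.9 against 4847.2) and Gstp1 (13627.4 against 5702.4) were short of the rule on the same side. The enzymes that make and regenerate glutathione and peroxiredoxin lay on the other side, with Gclc at 1097.5 against 2585.6, Gclm at 1456.2 against 2784.7 and Srxn1 at 444.1 against 1210.5. The transferrin receptor gene Tfrc lay at 8190.1 against 16020.6, and its 2 other probe sets differed by -0.97 and -1.02.

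Among the glycolysis, hypoxia and respiratory chain lists the only call was Ndrg1, a hypoxia-responsive gene, 5.12-fold higher at 2262.1 against 442.2. Its 3 other detected probe sets differed by 1.63 to 2.09, 1 more was undetected, and the mean over probe sets gave 2.00, just short of 4-fold. Outside the lists, and named after its value was seen, the respiratory complex I subunit gene Ndufb7 was 5.52-fold higher at 8072.3 against 1462.3. On their brightest probe sets the 20 detected genes of glucose transport and glycolysis all lay within 2-fold, from Pfkfb3 at 185.3 against 315 to Tpi1 at 11237.9 against 7181.3. Some other probe sets differed more, with 1.55 and -1.15 for Pdk1 and 1.37 for Pfkp. Other hypoxia genes went both ways, such as Vegfa at 929.3 against 430 and Bnip3 at 4943.5 against 11125.9. The 24 listed respiratory chain genes had a median of 0.24 and 0 calls, and the 23 genes of cholesterol and fatty acid synthesis a median of 0.25 and 0 calls. Among 25 genes of the integrated stress response and amino acid supply, 0 were called, but 21 had a positive difference and the median was 0.62, beside 0.04 over all detected genes. The transport pair Slc7a5 and Slc3a2 lay at 6216.3 against 2085 and 5078.9 against 2268, Trib3 at 977.8 against 363 and Atf4, the factor that drives this response, at 8111.5 against 4370.4. With centring on reference genes that include Hprt, the medians of these metabolic lists turned negative, at -0.13 for the stress response and -0.50 for the respiratory chain. Without Hprt in that centring, of these lists only glycolysis changed sign, from 0.08 to -0.02.

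Signalling genes were called across several pathways without filling any of them, and 8 of the 18 calls (Fgfr3, Gas1, Lifr, Nrp1, Ntn1, Osmr, Ptn and Slit2) fell short of 4-fold with both the mean and the median over probe sets. Of the 13 higher genes, 3 were brightest on the array labelled HB9-GFP+, 10 were detected in the Sox1 array and 11 in the granule array. The exception with the largest difference was epiregulin (Ereg), a ligand of the epidermal growth factor receptor, at 956 against 4.1, at least 12.1-fold, and undetected on the Sox1 and granule arrays at 3.6 and 1.5. Its receptor gene Egfr lay at 89.2 against 186, and the related ligand Hbegf at 669.9 against 702.2. The heparin-binding growth factor gene Ptn was higher at 320.8 against 46.5, although its signals of 15732 in the Sox1 array and 17904.8 in the granule array were far above both.

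**Figure D4:**
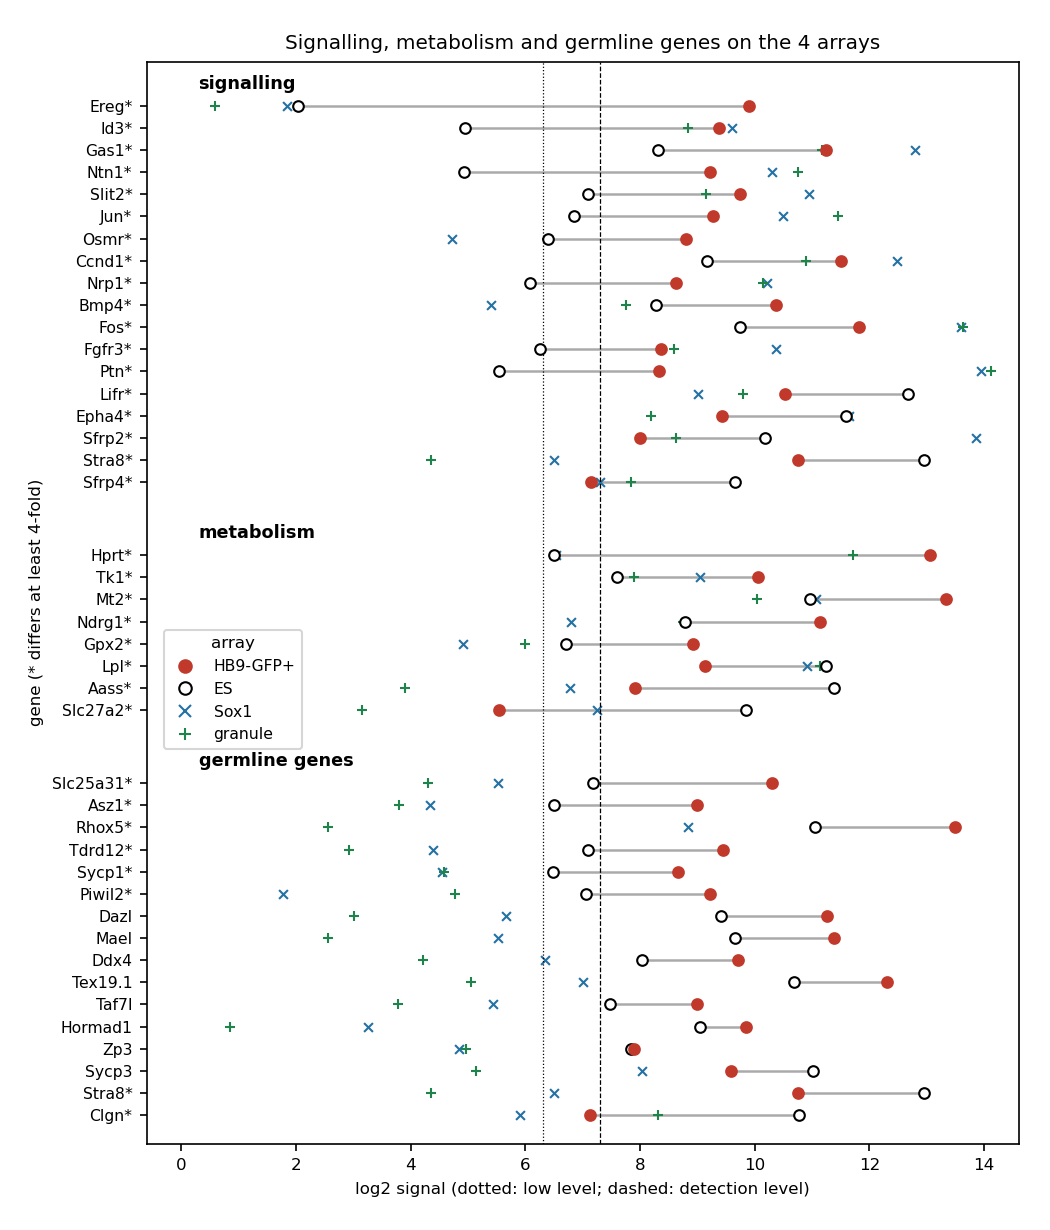
Log2 signal (x axis) of the called signalling and metabolism genes and of all 16 detected germline genes (y axis, an asterisk marks a called gene) on the 4 arrays, with the array labelled HB9-GFP+ as filled and the ES array as open circles. Most higher signalling genes sit below the Sox1 or granule signal, while no germline gene except Sycp3, Rhox5 and Clgn reaches the dashed detection line on those arrays.

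In the LIF pathway, which sustains mouse ES cells, the receptor genes were called in opposite directions on their brightest probe sets, and neither call held with the mean or median over probe sets. Lifr, the receptor subunit for LIF, was 4.43-fold lower at 1469.6 against 6517.4, with -1.15 on its other detected probe set. Osmr, the related receptor for oncostatin M, was higher at 444.3 against 83.6, but its other 2 probe sets were undetected and the mean over probe sets gave 0.00. Their shared partner Il6st lay at 739.9 against 626.5, with -1.70 on another detected probe set, and the ligand gene Lif lay at 262.2 against 75.9. The feedback target Socs3 lay at 9437.5 against 10929.3, Klf4 at 10033.7 against 10449.7 and Tfcp2l1 at 2174.1 against 2018.6, so these 3 downstream genes differed by less than 2-fold.

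Among bone morphogenetic protein (BMP) genes the calls fell on a ligand and a target. The ligand gene Bmp4 was 4.24-fold higher at 1316.2 against 310.5. Its target Id3 stood at 661.1 against 30.8, at least 8.39-fold, and Id1 lay at 609.2 against 247.1. Id2 lay at 496.3 against 620.8. The receptor genes Bmpr1a (1171.1 against 2266.5), Bmpr2 (684.3 against 1514) and Acvr2a (469.3 against 1037.7) were not called and had differences of -0.95, -1.15 and -1.15. Nodal and its co-receptor gene Tdgf1 lay at 4101.8 against 2911.5 and 18715.6 against 17646.

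Fibroblast growth factor feedback genes had 1 call among 16 detected, the receptor Fgfr3, at 329.4 against 76.2. The autocrine ligand of ES cells, Fgf4, lay at 2681.3 against 2869.7, and Fgfr2 at 90.6 against 277.2. Feedback inhibitors and effectors had positive differences below the rule, with Spry4 at 2092.6 against 679.2 (1.46 and 1.66 on its other detected probe sets), Etv4 at 703.6 against 287.6 and Dusp6 at 4742.6 against 2861.2, while Spry2 lay at 3750.1 against 3761.6.

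Immediate early genes, which answer growth factors and handling within minutes, had 2 of 18 detected members higher (11.1%, beside 2.00% over all detected genes). Their median was 0.99, which was 0.07 in the alternative with the lowest value. Jun stood at 615.8 against 115.1, with 2.13 on its other probe set, and Fos was 4.23-fold higher at 3609.5 against 853.8. Egr1 lay at 6030 against 2718.8, Ier2 at 2099.5 against 685.5 and Myc at 765.2 against 334.3. The Sox1 and granule arrays were higher still for Fos, at 12435.5 and 12716.3.

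The pathways named by the differentiation protocol gave few calls, on short lists. Of 10 detected hedgehog genes 2 were higher (20.0%) and 0 lower, beside 2.00% higher over all detected genes. Gas1, a hedgehog co-receptor, was 7.64-fold higher at 2431.6 against 318.4, and Ccnd1, which hedgehog and many mitogens induce, was 5.05-fold higher at 2892.9 against 572.7 with 2.25 and 2.21 on its other probe sets. The direct hedgehog target Ptch1 lay at 2890.8 against 3797, the transducer Smo at 382.2 against 414.3 and the co-receptors Cdon and Boc at 504.8 against 918.5 and 74.5 against 211.1. Gli1, another direct target, was undetected on both arrays at 54.3 against 44.1. Of 9 detected genes of the retinoic acid pathway 0 were higher and 1 lower (11.1%), beside 1.46% lower over all detected genes. The lower gene was Stra8, a retinoic acid target of germ cells, 4.60-fold lower at 1731.3 against 7962.3. The binding protein Crabp2 lay at 216.9 against 92.2 and Crabp1 at 1927 against 1278.5, where the Sox1 array had 12979.2 and 28152.5. Rarb, an inducible receptor, was undetected on both arrays at 33 against 27.

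WNT genes held 2 lower calls among 15 detected (13.3%, beside 1.46% lower over all detected genes), both secreted antagonists. Sfrp2 was 4.52-fold lower at 255.4 against 1154.2, and Sfrp4 stood at 141 against 810.8. Their relative Sfrp1 lay at 1504.6 against 993. The nuclear effectors Lef1 (486.3 against 211.7) and Tcf7l1 (3713.1 against 1615.2) were not called. Notch genes had 0 calls among 17 detected, from Notch4 at 776.6 against 410.5 to the feedback gene Nrarp at 211.4 against 418.3. Among guidance genes Ntn1 (593.1 against 30.6), Slit2 and the receptor Nrp1 (396.6 against 67.3) were higher, and the ephrin receptor gene Epha4 was 4.45-fold lower at 691.2 against 3078.2, with -1.68 to -2.92 on its other detected probe sets. The p53 targets had 0 calls among 16 detected, but Ccng1 lay at 8048.9 against 21653.3 (-0.62 and -1.60 on its other probe sets), Eda2r at 386.8 against 1038 and Mdm2 at 1660.7 against 3248, whereas Cdkn1a lay at 6230.6 against 6144.2.

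The shared pluripotency profile was not identical in detail. Of the 30 core and naive genes 1 was called, Dppa3, a gene of naive cells and early germ cells, 4.99-fold higher at 1153.5 against 231. Utf1 lay at 1801.6 against 510.5, Eras at 7249.5 against 2571.1, Nr0b1 at 4954.8 against 1917.7 and Klf2 at 4250 against 1831.6. Nearer to equality were Zfp42 (13094 against 15912.5), Sox2 (16038.3 against 18876.8) and Esrrb (4352.5 against 3409.8). The list had 7 members at or above 2-fold in the positive direction and 0 in the negative. Its median of 0.36 became -0.39 with centring on reference genes including Hprt, and kept its sign without Hprt in that centring. Lin28a lay at 4244.9 against 2006.4 on its brightest probe set and at 105.4 against 1395 on another, so its probe sets disagree. Of the 8 detected primed and early-lineage genes 0 were called, with Pou3f1 at 1347.8 against 341.5 and the definitive endoderm gene Sox17 at 132.2 against 444.5.

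Primitive and visceral endoderm genes, which mark the extraembryonic lineage that ES cultures can form, ran against the pluripotency genes. Of 13 detected members 0 were higher, 1 was lower and 12 had a negative difference, with a median of -1.20 that stayed between -1.72 and -0.88 in the alternatives run. Dab2, an endocytic adaptor, was 4.07-fold lower at 232.6 against 947.7, with -1.62 on its other detected probe set and -1.19 as the mean over probe sets. The endocytic receptor Cubn lay at 66.3 against 294.2, Hnf4a at 67.3 against 198, Gata6 at 285.1 against 457.9 and the keratin genes Krt8 and Krt18 at 373 against 536.5 and 311.4 against 571.9. Lama1 and Col4a1, counted above under the basement membrane, belong to this list too. Its exception was Krt19, at 204.2 against 82.2.

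Germline genes held calls in both directions. Of 16 detected members 6 were higher (37.5%) and 2 lower (12.5%), beside 2.00% higher and 1.46% lower over all detected genes. The median was 1.70. Higher were the testis form of the mitochondrial ADP/ATP carrier, Slc25a31 (1254.1 against 145.7), the piRNA pathway genes Asz1 (508.3 against 90.7), Tdrd12 (696.1 against 137.2) and Piwil2 (598.6 against 133.8), the meiotic gene Sycp1 (407.1 against 88.9) and the X-linked homeobox gene Rhox5, 5.46-fold higher at 11563.4 against 2117.5. The other probe set of Asz1 was undetected, and the mean over both gave 1.67. The germ cell RNA-binding and helicase genes Dazl (2445.6 against 681.1, 2.42 on its other probe set) and Ddx4 (834.3 against 262.2), with Mael (2673.8 against 805.2) and Tex19.1 (5068.9 against 1649.3), were positive and short of the rule. Lower were Stra8 and the testis chaperone Clgn, at 140.3 against 1743.6, with -2.62 and -1.54 on its other probe sets, and the meiotic gene Sycp3 lay at 765.2 against 2061.9. The meiotic genes lay on both sides, with Sycp1 higher and Stra8 lower. In the alternative that asks for at least 2 detected probe sets of the same sign, Dazl and Clgn alone remained of this list, and their median was -0.90.

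Regulators of the cell state added a few calls. D-type cyclins, which carry cells out of G1, had Ccnd2 at 769.4 against 107.5 and Ccnd1 as above, with Ccnd3 at 5546.7 against 1901.7, and the 4 other detected probe sets of Ccnd2 differed by 2.05 to 3.10. A further 2 of Ccnd2 were undetected, and the mean over probe sets gave 1.67, short of 4-fold. The 21 cell cycle genes had 0 calls and a median of 0.22. Of 13 genes of DNA methylation and silencing 1 was lower, the methylcytosine dioxygenase Tet2, 4.94-fold at 848.5 against 4189.7 with -1.17 on its other probe set and -1.74 as the mean of both. Its partner Tet1 lay at 3626.6 against 4816.8 and Dnmt3b at 8859.6 against 6361.9. Imprinted genes had 0 calls among 14 detected, and those of the Meg3 cluster had negative differences, with Meg3 at 484.1 against 1038.6, Rian at 157 against 333.3 and Mirg at 101 against 274.1, while the neighbouring gene Dlk1 lay at 226.1 against 67. Apoe, the lipid carrier, was 9.28-fold higher at 1689.8 against 182 and was the only glial-list gene called, of 6 detected.

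The lower genes as a whole were less concentrated in the lists, which held 16 of the 148. Kbtbd11 had the largest difference, at 123.7 against 3154.6, but its other 3 probe sets were undetected and the mean over probe sets gave -0.42. Mid1, an X-linked ubiquitin ligase gene, was 24.4-fold lower at 195 against 4766.9, likewise on 1 detected probe set of 3, with a mean over probe sets of -1.23. St8sia1, which makes the ganglioside GD3, stood at 136.3 against 1986.2, and Mfap3l at 66 against 1066.5, at least 13.5-fold. The non-coding RNA host Snhg11 was 11.9-fold lower at 165.8 against 1975, and Ttc14 11.8-fold lower at 238 against 2808, where its other 6 detected probe sets ranged from -0.41 to -3.06. Srgn, the proteoglycan core of secretory granules, was 7.86-fold lower at 266.9 against 2097.8, and Alox5ap, which serves leukotriene synthesis, stood at 110.6 against 774.2. The peptide transporter Slc15a2 stood at 139.4 against 1082.2, the protein kinase C gene Prkcb at 110.7 against 815.1 and the lipogenic regulator Thrsp at 105.5 against 834.5. The zinc finger gene Zfp820 was 7.08-fold lower at 177 against 1253.7, with Zfp950 at 52.1 against 598.3 and Zfp33b at 60.6 against 581.2. The transcripts 2900009J06Rik (114.4 against 1124.7) and AU016916 (90.9 against 650.4) complete the 20 largest with Slc27a2, Aass, Clgn and Pdxdc1. Of these 20 genes, Kbtbd11, Mid1, Mfap3l, Pdxdc1, Prkcb, Slc15a2, Thrsp and Zfp950 fell short of 4-fold with both the mean and the median over probe sets. On the higher side, the genes among the 20 largest that belong to no list were AI662270 (4463.7 against 113.2), the protease inhibitor gene Slpi (1432.8 against 90.3) and the membrane protein gene Tmem176b (1180.6 against 8.9, at least 15.0-fold). Kbtbd11, Mid1 and St8sia1 were bright on the other arrays as well, with Sox1 signals of 2108.3, 3228.3 and 1971 and granule signals of 2371.9, 2720.1 and 2410.6, so the array labelled HB9-GFP+ was the low array for these 3. The neuronal intermediate filament gene Ina was 6.46-fold lower at 387.9 against 2506.2 and was the only pan-neuronal gene called, of 17 detected. Nefh lay at 998.1 against 260.9, and Stmn2 at 9013.3 against 5260.3. Of 12 detected neural progenitor genes, Id3 and Fgfr3 were the 2 called, while Sox1 lay at 175.6 against 193.5 and Pax6 at 36.8 against 217.8. Sex-linked genes held 2 lower calls among 8 detected, Mid1 and Xist, the RNA that silences an X chromosome, 5.49-fold lower at 159.1 against 873.3. Both rest on 1 of 3 probe sets, and the mean over probe sets of Xist gave -0.23. The Y-linked gene Eif2s3y lay at 1425.6 against 4847.8. For Pdxdc1, at 187.7 against 1605.4, another probe set differed by 4.74 in the opposite direction.

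The other arrays place the called genes as follows. Of the 202 higher genes 152 were brightest on the array labelled HB9-GFP+, 114 were detected in the Sox1 array, 131 in the granule array and 58 on neither. Of the 148 lower genes 111 were brightest on the ES array, 97 were detected in the Sox1 array, 93 in the granule array and 40 on neither. Where a higher gene had another detected probe set, the sign was the same on all of them for 53 of 55 genes, and 26 of these passed 4-fold on each. For lower genes the sign was the same for 48 of 53 genes, and 11 passed 4-fold on each.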

How the data were processed

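Total RNA was labelled and hybridised to Affymetrix arrays per the labels' protocols, with 1 array for each of the 4 cell kinds. The deposited values are linear intensities for 45101 probe sets, from 0.1 to 43110.3. GCRMA is named, with no version, in the submitters' processing notes. Each array's mean, after trimming 2% at each end, was 500.0, as in a scaled average difference, so the step that made the intensities is uncertain, and such scaling forces a common average on the arrays. Precision is limited by the number of arrays.

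Gene symbols came from the platform annotation, where 34945 probe sets had 1 symbol and 932 several. No pseudocount was used, and log2 values under the low level of 6.30 were set to it. Every called list member, the 20 largest differences in each direction, the defining genes of the labelled cells, and up to 4 uncalled members with large differences per described list were named, with pathway partners. The 51 lists, the members and this rule were chosen with earlier results of these data known. Alternatives, 14 in number, changed the floor, detection, scaling, gene summary and size of difference. A further 2, the probe set chosen on the linear scale and the removal of probe sets ending in s_at or x_at, were chosen after seeing the data. The calling rule was tested on simulated data with little noise and 1 value per gene, where only genes far above the low level were changed. That test does not cover calls near the low level or probe sets that disagree. Python 3.11.15, numpy 2.4.6, pandas 2.3.3, scipy 1.17.1 and matplotlib 3.10.9 were used. Promoter sequences are those of RefSeq for GRCm38.p6. Mgp and Dcn were not matched there.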

Additional observations from a re-analysis of the deposited data

Results flagged for a closer look

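Probe sets outside the gene comparison also differed between the arrays. Of 9160 probe sets with no gene symbol in the annotation, 1750 were detected on either array, and 14 were higher (0.800%) and 196 lower (11.2%) on the array labelled HB9-GFP+. Their median log2 difference was -1.07, and the lower ones had a median signal of 104.7 there and 600.5 on the ES array. The largest difference among them was 36.7 against 1669. Of 932 probe sets with several symbols, 512 were detected, with 17 higher (3.32%), 13 lower (2.54%) and a median of 0.04.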

How the results depend on the processing

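The 202 higher and 148 lower genes became 1210 and 1279 at 1 log2 unit, 51 and 11 at 3 log2 units, 53 and 48 among genes with at least 2 detected probe sets of the same sign, and 78 and 632 with centring on reference genes including Hprt, which moved the median of detected genes to -0.70. The same centring without Hprt moved that median to -0.06. Under it 99 of the 109 called genes that are list members or among the largest differences stayed called. A low level 1 log2 unit higher left 92 lower genes. From the mean and from the median over probe sets, the 23 matrix calls became 13 and 14, the 17 inflammation calls 11 and 11, and the 18 signalling calls 10 and 10. With at least 2 detected probe sets of the same sign, matrix kept 12 calls, inflammation 4, signalling 5 and metabolism 2 of 8, where fewer genes could enter. The difference reversed for Pdxdc1 with the mean over probe sets (0.20), for Slit2 with the median (-0.19) and for Vcam1 with the probe set highest over the 2 arrays compared (-0.02), and the cause was not tested. Of the same 109 genes 39 were called, and 106 kept their sign, under each alternative that gave them a value. That was 12 to 14 alternatives a gene and all 14 for 34 genes. No paired analysis was possible because each group has 1 array, so no replicate numbers pair the groups and no replicate could be left out. Signals under 78.8 carry no order.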

Other observations

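These gene families were chosen after their values were seen, by the shared stem of their symbols, and are described without a test. Over all detected genes 2.00% were higher and 1.46% lower. Of 15 detected Timm genes, whose products import proteins into mitochondria, 3 (Timm10, Timm13 and Timm22) were called higher in the array labelled HB9-GFP+, 0 were lower and the median log2 difference was 0.80. Of 26 detected Coq, Coa, Uqcc and Ndufaf genes, which serve coenzyme Q synthesis and the assembly of respiratory complexes, 6 were higher (Coa3, Coa8, Coq3, Coq4, Ndufaf3 and Uqcc3), 0 were lower and the median was 0.63. With centring on reference genes including Hprt these medians were 0.06 and -0.11, with 0 calls in either family. Without Hprt in that centring they were 0.70 and 0.53, with 2 and 5 genes higher. From the mean over probe sets they were 0.31 and 0.38, with 2 and 5 higher. With at least 2 detected probe sets of the same sign, 5 genes of each family remained. Their medians were 0.11 and 0.41, with 0 and 2 higher. Bola1 and Bola3, of 3 detected Bola genes, were higher, as were Nlrp4c, Obox6 and Tcstv1 of 7 detected genes of oocyte and early embryo families.

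Of 240 detected zinc finger genes with Zfp symbols 3 were higher and 13 lower, 157 had a negative difference and the median was -0.41. The median lay between -1.15 and -0.32 in the alternatives run. Of 7 detected carbonic anhydrase genes 2 were lower, Car2 and Car3. The median gene span in RefSeq was 13.9 kb for the higher genes, 32.8 kb for the lower genes and 24.3 kb for the detected genes, and spans over 50 kb made up 19.8%, 41.8% and 27.5% of them.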
